A study of Mus musculus with 2 samples.

Results

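The genes described here encode the subunits of respiratory complexes II to V, the part of the mitochondrial energy machinery that lies downstream of, or beside, complex I. Members were chosen by gene symbol alone: the 4 Sdh genes, every Uqcr gene and Cyc1, the Cox genes of the families numbered 4 to 8, the Atp5 genes, and the mt-Co, mt-Cytb and mt-Atp genes. Of 32285 genes listed in the files, 54 met this rule, 48 encoded in the nucleus and 6 in the mitochondrial genome. Complex II had 4 nuclear members, complex III had 9 nuclear members and 1 mitochondrial one, complex IV had 18 and 3, and complex V had 17 and 2. The rule used no measured value.

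Complex II oxidises succinate and passes the electrons to ubiquinone, complex III hands them on to cytochrome c, and complex IV, cytochrome c oxidase, uses them to reduce oxygen. Complexes III and IV pump protons across the inner mitochondrial membrane, and complex V, the ATP synthase, lets them flow back to make ATP. Complex II is built from nuclear genes alone, whereas complexes III, IV and V join nuclear subunits with a core made inside the mitochondrion, so their supply depends on transcripts of both genomes. In tumors, activated lymphocytes and phagocytes draw on this machinery to different degrees, and a ketogenic diet shifts the fuels of the body from glucose towards fatty acids and ketone bodies.

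The cells came from tumors of MC38, a mouse colon adenocarcinoma line, whose cells were placed under the skin of the right flank of female C57BL/6J mice aged 6 to 8 weeks. One group stayed on a normal diet and the other received a ketogenic diet from day 4, and tumors of both were taken on day 14. Dead cells were removed, cells bearing CD45 (the general surface protein of leukocytes) were enriched on magnetic beads, and their RNA was counted at its 3′ end in droplets, with unique molecular identifiers (UMIs) and a barcode for each cell. Each diet had 1 library, which pooled 5 mice that cannot be told apart by their barcodes. With 1 library per diet no test between the diets was possible. Every difference is therefore a difference between 2 libraries, and each interval is a 95% exact interval that covers counting error only, not the spread between mice or libraries.

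Barcodes with at least 500 UMIs and 300 genes numbered 5671 under the normal diet and 5944 under the ketogenic diet, with medians of 4200 and 3922 UMIs and totals of 35623303 and 39758619 UMIs. Classes were gated on summed marker levels without any member, and 12 classes with at least 20 barcodes in each library were used. The 4 main ones, given here as normal and then ketogenic, were macrophages (1260 and 520 barcodes), monocytes (805 and 851), natural killer (NK) cells (825 and 1486) and CD8 T cells (403 and 471). The other 8 classes held 25 to 161 normal and 30 to 209 ketogenic barcodes, apart from which 784 and 880 barcodes carried markers of 2 lineages and were left out as possible doublets. Ptprc, the gene of CD45, stood at 238 to 1195 CPM (UMIs of a gene in a class, scaled to a common total of all UMIs of that class) in the 11 leukocyte classes and at 28.8 and 29.1 CPM in a class set by tumor and stromal markers, where the myeloid list summed to 1020 and 1233 CPM. That last class joins tumor-like and stromal barcodes and is called non-leukocyte. The macrophage marker list summed to 15488 and 15805 CPM in macrophages and to 314 and 81.6 CPM in NK cells, and the NK list to 8364 and 8920 CPM in NK cells and to 207 and 124 CPM in macrophages. Only 7 barcode sequences were found in both libraries. All 12 gates draw on the same 2 libraries, so they are not 12 independent repeats of the diet comparison.

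Promoters of nuclear members were searched for motifs of known regulators of respiratory genes, and 1 stretch per complex is shown to make the matches visible. NRF1 and GABP (an ETS family factor) are textbook activators of nuclear respiratory genes, and YY1 is a further one. RefSeq promoters of GRCm38.p6, running from 250 bases before to 50 bases after the annotated start, were found for 36 of the 48 nuclear members. The motifs searched on both strands were GCATGCGC for NRF1, CCGGAAG for ETS factors and AAGATGGCG for YY1. The NRF1 core can overlap its own reverse complement in the 10 letters GCGCATGCGC, which then count as 2 matches. The lines below give the 180 bases before the start, 5′ to 3′ on the gene's strand, with matches that lie wholly within it in capitals. They were chosen because they hold matches, and 20 of the 36 members held none. They are chr4:140961091-140961270 (plus strand) for Sdhb, chr10:80406822-80407001 (minus) for Uqcr11, chr5:115348959-115349138 (minus) for Cox6a1 and chr15:102671048-102671227 (minus) for Atp5g2.
Sdhb: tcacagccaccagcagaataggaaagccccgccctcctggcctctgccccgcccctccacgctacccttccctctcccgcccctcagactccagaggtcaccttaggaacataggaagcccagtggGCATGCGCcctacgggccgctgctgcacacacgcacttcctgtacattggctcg
Uqcr11: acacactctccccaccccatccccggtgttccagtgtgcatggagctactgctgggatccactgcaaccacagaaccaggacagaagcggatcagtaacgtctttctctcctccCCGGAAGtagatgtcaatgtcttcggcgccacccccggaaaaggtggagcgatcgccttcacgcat
Cox6a1: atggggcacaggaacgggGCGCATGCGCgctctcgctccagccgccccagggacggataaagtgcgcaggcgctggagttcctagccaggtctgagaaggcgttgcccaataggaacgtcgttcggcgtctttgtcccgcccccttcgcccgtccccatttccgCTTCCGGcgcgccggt
Atp5g2: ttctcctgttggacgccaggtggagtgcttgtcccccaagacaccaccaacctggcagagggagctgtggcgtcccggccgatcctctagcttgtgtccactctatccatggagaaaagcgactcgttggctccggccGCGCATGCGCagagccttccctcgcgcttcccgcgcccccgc

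Sdhb, the iron-sulfur subunit of complex II, had its NRF1 core 54 bases before the start, and Atp5g2, 1 of 3 genes for the c-ring of ATP synthase, had the overlapping double core 42 bases before it. Cox6a1, the widely expressed form of a complex IV subunit, had the double core at 162 bases and an ETS core at 16 bases. Uqcr11, a small complex III subunit, had an ETS core at 66 bases and an NRF1 core that begins 4 bases before the start and runs past it, so it is not in capitals. Sdhb also had an ETS core after the start, outside the bases shown. NRF1 cores stood in the promoters of 7 members, 19.4% of those with a promoter, against 3.07% of 26742 genes in the same table. ETS cores stood in 13 members (36.1%, against 10.0% of all genes) and YY1 cores in 2 (5.56%, against 1.65%). Any of the 3 was present in 16 members, 44.4%, against 13.7% of all genes. A match describes these letters only and is neither a bound site nor a cause.

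Transcripts of the 2 genomes stood on opposite sides between the libraries. The 6 mitochondrially encoded members together held 1.44% of macrophage UMIs under the normal diet and 0.920% under the ketogenic diet, while the 48 nuclear members held 1.31% and 1.55%. In monocytes the mitochondrial members held 1.98% and 1.30%, and the nuclear ones 1.38% and 1.65%. In NK cells the shares were 2.06% and 1.38% for the mitochondrial and 1.605% and 1.84% for the nuclear members. In CD8 T cells they were 1.90% and 1.43%, and 1.59% and 1.79%. In each of these 4 classes the mitochondrial sum was lower and the nuclear sum higher in the ketogenic library, and none of the 8 pairs of intervals overlapped.

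On the log2 scale, the ketogenic over normal ratio of the mitochondrial sum was −0.65 (−0.67 to −0.63) in macrophages, −0.61 (−0.63 to −0.59) in monocytes, −0.58 (−0.59 to −0.56) in NK cells and −0.41 (−0.43 to −0.39) in CD8 T cells. That of the nuclear sum was 0.24 (0.22 to 0.26), 0.25 (0.24 to 0.27), 0.20 (0.19 to 0.21) and 0.17 (0.16 to 0.19) in the same order. Both differences were smallest in CD8 T cells among these 4 classes, but with free RNA subtracted the mitochondrial difference was largest there. UMIs of nuclear members per UMI of a mitochondrial member were 0.909 in normal and 1.68 in ketogenic macrophages, 0.698 and 1.27 in monocytes, 0.779 and 1.33 in NK cells, and 0.837 and 1.25 in CD8 T cells. Mitochondrial members thus outnumbered nuclear ones in the normal library and were outnumbered by them in the ketogenic library, in all 4 classes.

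The same split ran through the smaller classes. The mitochondrial sum was lower in the ketogenic library in 12 of 12 classes, with a median log2 ratio of −0.59 and a range from −0.92 in the non-leukocyte class to −0.26 in other T cells, which carry T cell markers but fall below the gate limits for Cd8a and Cd8b1 and for regulatory T cells. The nuclear sum was higher in 11 of 12, with a median of 0.20, and reached 0.53 in neutrophils, where it stood at 0.785% and 1.14% of UMIs. Mast cells or basophils were the exception, with 1.11% of UMIs under the normal diet and 0.969% under the ketogenic diet, a log2 ratio of −0.20. That gate holds 26 and 49 barcodes, and 1 barcode gave 23.7% of its nuclear member UMIs in the normal library. Its marker content also differed between the libraries. The myeloid list summed there to 5642 CPM under the normal and 884 CPM under the ketogenic diet. The neutrophil list summed to 3945 and 306 CPM, and the mast cell or basophil list to 7679 and 9994 CPM. In regulatory T cells 1 barcode gave 34.0% of the mitochondrial member UMIs in the normal library and 1 gave 19.2% in the ketogenic library. In neutrophils 1 barcode gave 16.4% of the mitochondrial member UMIs in the normal library, and without the top barcode of each library the log2 ratio was −0.30 instead of −0.51. The same step gave −0.46 instead of −0.92 in regulatory T cells, −0.72 instead of −0.47 in mature dendritic cells and −0.41 instead of −0.26 in other T cells, and the nuclear ratio of mast cells or basophils was −0.31. The mitochondrial sum was still lower in 12 of 12 classes. The gate of mature dendritic cells, too, differed in marker content between the libraries. The macrophage list summed there to 3753 CPM under the normal and 614 CPM under the ketogenic diet, and its own list to 5627 and 10155 CPM. So did the neutrophil gate, where the nuclear ratio was highest. The monocyte list summed there to 5899 CPM under the normal and 10276 CPM under the ketogenic diet. The myeloid list summed to 9759 and 14210 CPM, and the neutrophil list to 61405 and 54981 CPM.

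**Figure D1:**
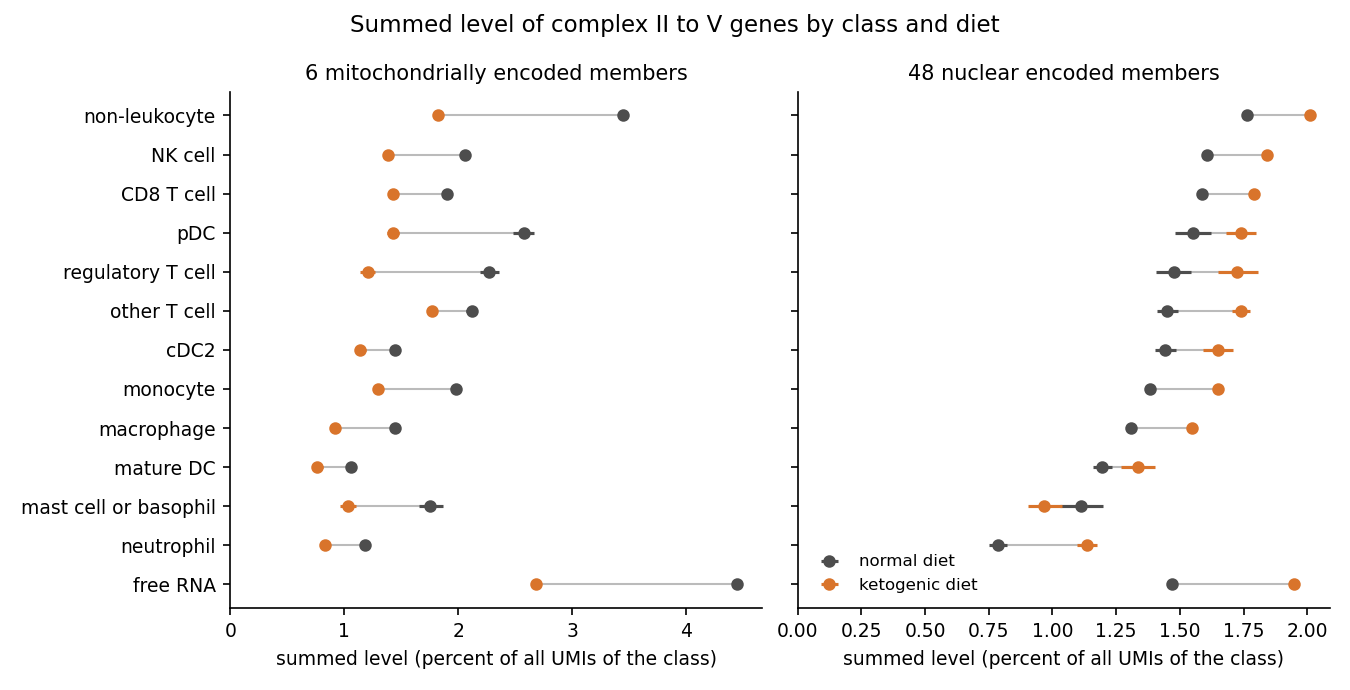
Summed level of the 6 mitochondrially encoded (left) and 48 nuclear encoded members (right) in 12 classes and in free RNA, as percent of all UMIs of the class (x axis); points are the 2 libraries, horizontal bars are 95% exact intervals for counting error. The mitochondrial sum is lower in the ketogenic library in 12 of 12 classes and the nuclear sum higher in 11 of 12, and free RNA shows both differences too.

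Free RNA, taken from barcodes with at most 100 UMIs, differed between the libraries in the same 2 directions. These barcodes held 4.33% of the normal library's UMIs and 6.09% of the ketogenic library's. Mitochondrial members made up 4.44% and 2.68% of this free RNA, a log2 ratio of −0.73, and nuclear members 1.47% and 1.95%, a log2 ratio of 0.41. The share of free RNA in each class, estimated from markers of other classes, was 9.42% and 3.72% in macrophages, 7.60% and 6.06% in monocytes, 5.01% and 5.82% in NK cells, and 15.4% and 33.4% in CD8 T cells. With the free RNA profile subtracted at those shares, the mitochondrial log2 ratio was −0.41 in macrophages, −0.56 in monocytes and −0.85 in CD8 T cells, and the nuclear one in CD8 T cells was 0.08. The mitochondrial sum then stayed lower in 10 of 12 classes, with cDC2 at 0.08 and mature dendritic cells at 0.83. In these classes the estimated share was far larger in the normal library. It was 12.3% and 3.33% in cDC2, and 16.2% and 2.33% in mature dendritic cells.

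The same differences were seen at most depths within a class. When the barcodes of the 4 main classes were split at 2000 and 5000 UMIs, the mitochondrial sum was lower in the ketogenic library in 12 of 12 bins, at log2 ratios from −0.94 to −0.22. The nuclear sum was higher in 11 of 12, from −0.06 in the shallowest CD8 T cells to 0.33. Medians over single barcodes gave the same order in the 4 main classes: nuclear members held 1.26% and 1.47% of a macrophage's UMIs and 1.57% and 1.79% of an NK cell's, and mitochondrial members held 1.10% and 0.663%, and 1.97% and 1.25%. In neutrophils the median mitochondrial share went the other way, at 0.235% under the normal and 0.312% under the ketogenic diet. Malat1, a nuclear long noncoding RNA often used as a sign of nuclear RNA, stood at log2 ratios of −0.05 in macrophages and 0.28 in NK cells. It was higher in 8 of 12 classes, at up to 0.71 in the non-leukocyte class, and lower in 4. Neat1, another nuclear noncoding RNA, stood at −0.87 in macrophages and −0.75 in NK cells and was lower in 12 of 12 classes. The part of nuclear RNA, cell integrity or library preparation in the members' differences was not tested.

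Among the mitochondrial members, the ATP synthase transcript mt-Atp6 differed most and the complex III transcript mt-Cytb least in the 4 main classes. mt-Atp6 encodes the subunit that forms the proton channel together with the c-ring. It stood at 2852 CPM in normal and 1419 CPM in ketogenic macrophages, 3966 and 2021 in monocytes, 4484 and 2278 in NK cells, and 4185 and 2420 in CD8 T cells. Its log2 ratios were −1.01 (−1.06 to −0.95), −0.97 (−1.02 to −0.93), −0.98 (−1.01 to −0.95) and −0.79 (−0.83 to −0.75). The ketogenic level was the lower one in each, with no overlap of the intervals. Over all classes its level was lower in 12 of 12, from −1.40 in regulatory T cells to −0.48 in cDC2. The regulatory T cell value rests on 25 and 30 barcodes.

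mt-Co1 carries the heme and copper centre where oxygen is reduced, mt-Co2 takes up the electrons of cytochrome c, and mt-Co3 completes the core of complex IV. In macrophages mt-Co2 stood at 2963 and 1685 CPM (log2 ratio −0.81), mt-Co3 at 3626 and 2329 CPM (−0.64) and mt-Co1 at 3826 and 2759 CPM (−0.47). In NK cells mt-Co2 stood at 3840.15 and 2433 CPM (−0.66), and mt-Co1 at 4402 and 3341 CPM (−0.40). In CD8 T cells, where the differences were smaller, the log2 ratios were −0.47 for mt-Co2, −0.38 for mt-Co3 and −0.23 for mt-Co1. Each of the 3 was lower in 12 of 12 classes, with medians of −0.70, −0.61 and −0.42, and the interval of mt-Co1 included 0 in other T cells.

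mt-Cytb, the membrane core of complex III, stood at 1125 and 994 CPM in macrophages, 1510 and 1326 in monocytes, 2031 and 1743 in NK cells, and 1698 and 1595 in CD8 T cells. Its log2 ratios in those classes lay between −0.22 and −0.09. It was lower in 9 of 12 classes and higher in cDC2 (0.09), mature dendritic cells (0.17) and other T cells (0.07), where the intervals included 0. In regulatory T cells it reached −0.998, below mt-Co1 at −0.36, but 1 barcode gave 34.0% of that class's mitochondrial member UMIs in the normal library. mt-Atp8, whose reading frame overlaps that of mt-Atp6 on a shared transcript, had 95 and 22 UMIs in macrophages and 110 and 133 in NK cells. Its log2 ratios of −0.59 (−1.33 to 0.09) and −0.36 (−0.74 to 0.02) cannot be separated from 0 at this depth. It was lower in 5 of 5 classes where it was measured, with 1 interval below 0 and the lowest ratio, −1.43, in the non-leukocyte class. Reads of the overlapping pair, and of nuclear copies of mitochondrial genes, may be shared in the counting.

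The order of these ratios was similar in most classes. The log2 ratio of mt-Atp6 was below that of mt-Cytb in 12 of 12 classes, with a median difference of −0.77, and below those of mt-Co1 and mt-Co3 in 12 of 12 and of mt-Co2 in 11 of 12. mt-Co2 in turn was below mt-Co1 in 12 of 12 and below mt-Co3 in 11 of 12. Free RNA gave nearly the same order, with mt-Atp6 at −1.10, mt-Co2 at −0.82, mt-Co1 at −0.67, mt-Co3 at −0.64 and mt-Cytb at −0.32. The mitochondrial transcripts of complex I also spread widely. In macrophages mt-Nd3 stood at −0.87 and mt-Nd2 at −0.72, mt-Nd5 at −0.20 and mt-Nd4l at 0.69, and in NK cells they stood at −0.95, −0.81, −0.06 and 0.43. The libraries thus differed in the proportions among mitochondrial transcripts as well as in their sum.

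**Figure D2:**
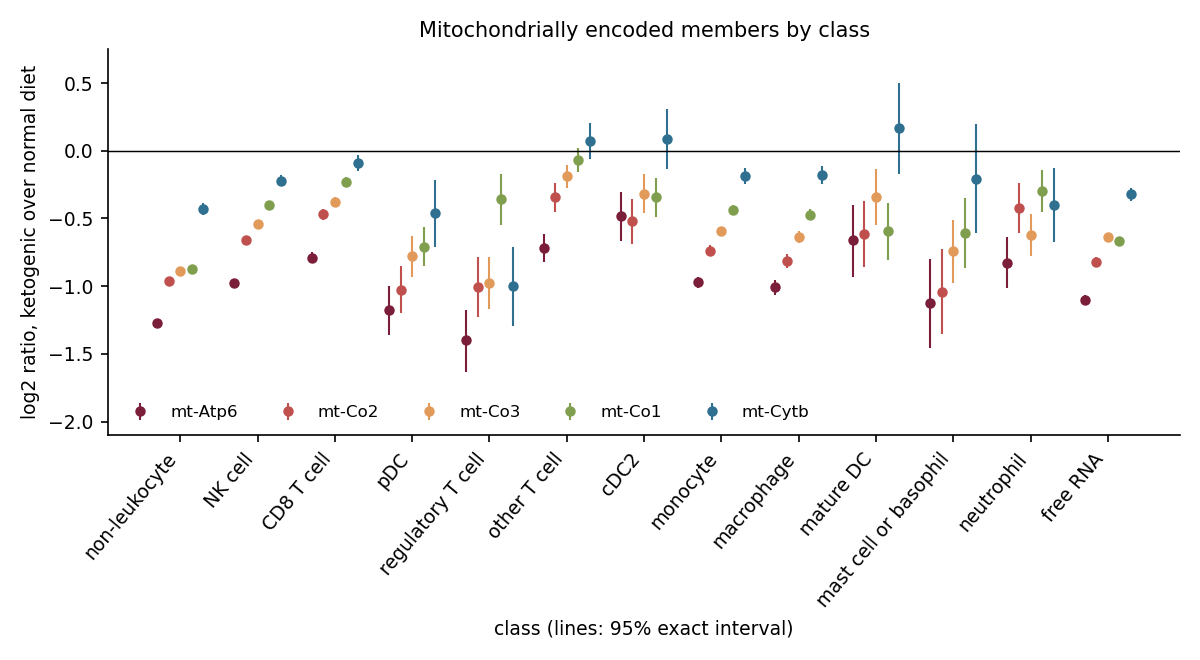
Log2 ratio of ketogenic over normal diet (y axis) for 5 mitochondrially encoded members in 12 classes and in free RNA; vertical lines are 95% exact intervals for counting error, and mt-Atp8 is not drawn because it has few UMIs. mt-Atp6 lies below mt-Cytb in each class, and mt-Cytb is above 0 in cDC2, mature dendritic cells and other T cells.

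Most measured nuclear members were higher in the ketogenic library, by less than 1.5-fold in the main classes. In each main class 41 of 48 nuclear members had at least 100 UMIs over both libraries and are called measured there. The 7 that did not were Cox4i2, Cox6a2, Cox6b2, Cox7a1, Cox7b2, Cox8b and Cox8c, tissue-specific forms described below. A ratio of at least 1.5-fold served as the rule of size. In macrophages 0 of 41 nuclear members were past it in either direction, against 1.4% of 6877 measured genes that were higher and 10.1% that were lower. In monocytes it was 0 of 41, against 1.93% higher and 7.26% lower of 5552 genes. In NK cells it was 0 of 41, against 0.997% higher and 4.88% lower of 7421 genes, and in CD8 T cells 0 of 41, against 1.56% higher and 3.34% lower of 6172 genes. Of the 6 mitochondrial members, 4 were lower past that size in macrophages, 3 in monocytes, 2 in NK cells and 1 in CD8 T cells, and 0 were higher. With free RNA subtracted the count was 2 in macrophages and 6 in CD8 T cells, and with the median of all genes set to 0 it was 2 in macrophages and 1 in NK cells. mt-Atp8, only just past the limit in macrophages, was the least certain of them.

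The median log2 ratio of the measured nuclear members was 0.23 in macrophages, 0.26 in monocytes, 0.20 in NK cells and 0.18 in CD8 T cells, where all measured genes had medians of −0.13, −0.08, −0.08 and −0.04. Ratios above 0 were found for 36, 37, 35 and 36 of 41 members, against 33.8%, 40.4%, 37.8% and 43.5% of all measured genes. The intervals of 29, 31, 30 and 28 members lay above 0, and those of 1, 2, 5 and 1 lay below it. The same share over all measured genes was not computed, so these counts have no background beside them. Taken over the 12 classes, 36 of the 42 nuclear members measured in at least 1 class had a median log2 ratio above 0. No matching count of all genes was made over these classes. Their medians of all measured genes ran from −0.13 in macrophages to 0.11 in regulatory T cells.

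**Figure D3:**
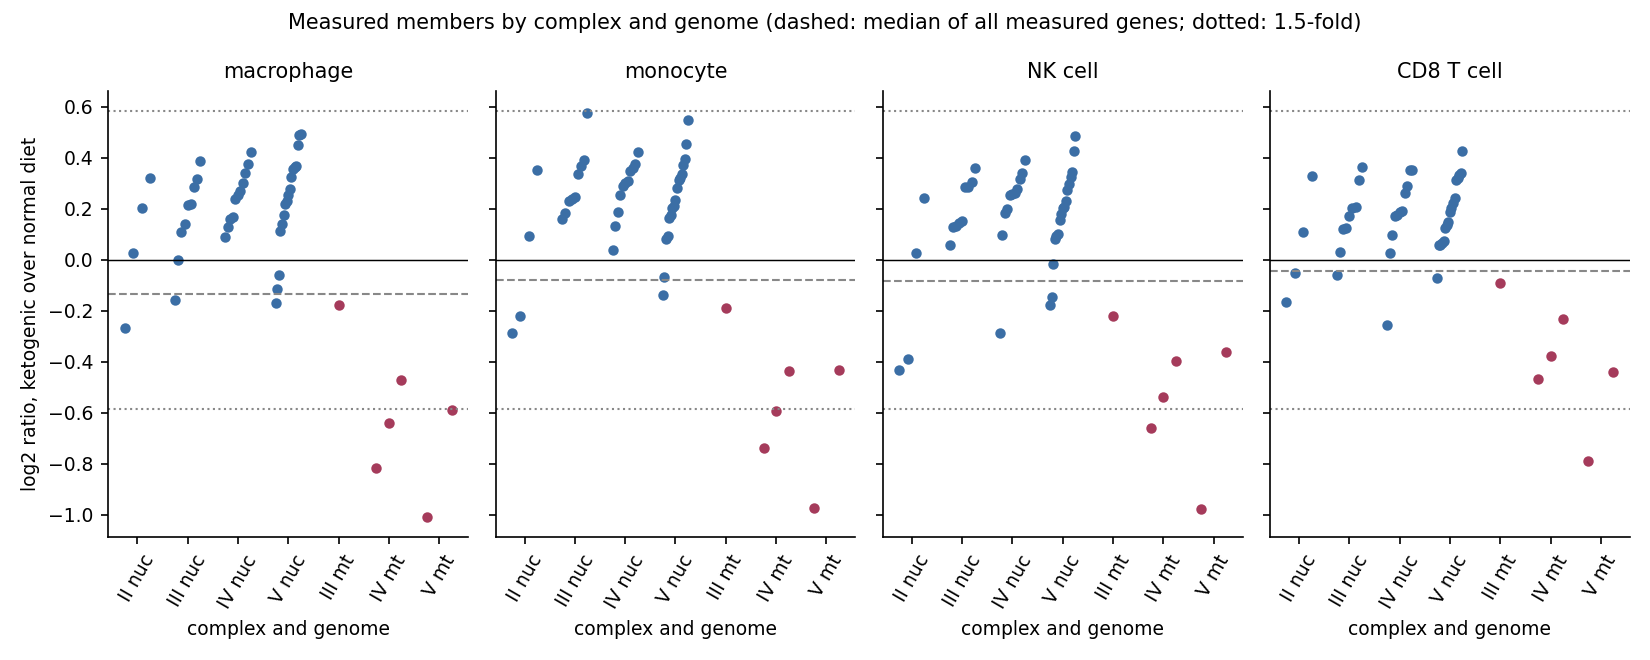
Log2 ratio of ketogenic over normal diet (y axis) for each measured member in the 4 main classes, grouped by complex and genome (blue nuclear, red mitochondrial); the dashed line is the median of all measured genes and the dotted lines mark 1.5-fold. Nuclear members lie between the dotted lines in all 4 classes, mostly above 0, and mitochondrial members lie below 0.

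In complex II the 4 genes lay on both sides of 0. Sdhb, which carries the iron-sulfur clusters, was at 178 CPM in normal and 222 CPM in ketogenic macrophages, 159.5 and 204 in monocytes, 129 and 153 in NK cells, and 145 and 182 in CD8 T cells. Its intervals lay above 0 in all 4, with log2 ratios of 0.32, 0.35, 0.24 and 0.33, and it was higher in 7 of 7 classes where it was measured. Sdha, the flavoprotein that oxidises succinate, was at 74.5 and 62.0 CPM in macrophages, 64.5 and 55.3 in monocytes, 73.1 and 55.9 in NK cells, and 66.9 and 64.6 in CD8 T cells. It was lower in 5 of 5 classes where it was measured, but among the main classes the interval excluded 0 in NK cells alone, at −0.39 (−0.60 to −0.17).

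Sdhc and Sdhd anchor the enzyme in the membrane. Sdhc was at 83.7 and 85.2 CPM in macrophages and at 74.2 and 55.1 CPM in NK cells, with log2 ratios of 0.03 (−0.22 to 0.27) and −0.43 (−0.64 to −0.22), and it was lower in 3 of 5 classes. Sdhd was at 87.9 and 101 CPM in macrophages and at 79.8 and 81.3 CPM in NK cells, with intervals that included 0 in both. The summed complex II level had a log2 ratio of 0.15 (0.05 to 0.25) in macrophages, 0.10 (−0.02 to 0.21) in monocytes, −0.04 (−0.13 to 0.05) in NK cells and 0.14 (0.02 to 0.26) in CD8 T cells. Over 12 classes it was higher in 7 and lower in 5, with only 2 intervals above 0, while the nuclear sums of complexes III, IV and V were each higher in 11 of 12.

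In complex III the nuclear sum was at 1893 and 2207 CPM in macrophages, 2016 and 2504 in monocytes, 2162 and 2512 in NK cells, and 2230.35 and 2531 in CD8 T cells. The log2 ratios were 0.22, 0.31, 0.22 and 0.18, on the other side of 0 from mt-Cytb of the same complex. Uqcrb, a small subunit near the quinone site, differed most in monocytes among all nuclear members, at 262 and 391 CPM and a log2 ratio of 0.58 (0.45 to 0.71), and was higher in 8 of 8 classes. Uqcrh, the hinge subunit that helps bind cytochrome c1, was higher in 12 of 12, and Uqcrq was at 268 and 346 CPM in CD8 T cells, at 0.37 (0.23 to 0.50). For the large core subunits the intervals included 0 in all 4 main classes. Uqcrc2 was at 96.9 and 87.0 CPM in macrophages, a ratio of −0.16 (−0.39 to 0.08), and had ratios of 0.18, 0.13 and 0.12 in monocytes, NK cells and CD8 T cells. Uqcrc1 was at 108 CPM in macrophages of both libraries and at 108 and 121 CPM in monocytes, 0.16. Uqcrfs1, the Rieske iron-sulfur protein, was at 130.2 and 162 CPM in macrophages, 0.32 (0.14 to 0.50), and at 145 and 161 CPM in NK cells, 0.15 (0.01 to 0.29).

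In complex IV the nuclear sum was at 5145 and 6158 CPM in macrophages and 6158 and 7178 CPM in NK cells, with log2 ratios of 0.26 (0.23 to 0.29) and 0.22 (0.20 to 0.24). The mitochondrial sum of the same complex was at 10415 and 6773 CPM in macrophages, a ratio of −0.62 (−0.65 to −0.60), and at −0.52 (−0.54 to −0.51) in NK cells. Cox7c, a small membrane subunit, was at 503.6 and 654 CPM in macrophages, 606 and 795 in NK cells, and 648 and 827 in CD8 T cells, and was higher in 11 of 11 classes. Cox5b, Cox6b1 and Cox8a were also higher in 11 of 11, and Cox4i1 in 11 of 12. Cox7a2l was lower in several classes. It was at 324 and 266 CPM in NK cells, −0.29 (−0.38 to −0.19), and at 387 and 324 CPM in CD8 T cells, −0.26 (−0.38 to −0.13). In macrophages it was at 179.8 and 191 CPM, 0.09 (−0.07 to 0.25). It was lower in 6 of 8 classes, the lowest ratio being −0.97 (−1.53 to −0.43) in cDC2, at 377 and 193 CPM.

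Complex V showed the widest gap between its genomes. Its nuclear sum was at 5635 and 6628 CPM in macrophages and 7370 and 8389 CPM in NK cells, with log2 ratios of 0.23 (0.21 to 0.26) and 0.19 (0.17 to 0.21). Its mitochondrial sum was at 2866 and 1429 CPM, and 4508 and 2297 CPM, with ratios of −1.005 and −0.97. Within the nuclear set, members lay on both sides of 0. Atp5b, the catalytic beta subunit, was at 416 and 371 CPM in macrophages, −0.17 (−0.28 to −0.05), and at 524 and 463 CPM in NK cells, −0.18 (−0.25 to −0.10). It was lower in 11 of 11 classes, with 5 intervals below 0, and in 10 of 11 with the median of all measured genes of each class set to 0, where monocytes stood at 0.01. Atp5a1, the alpha subunit, was lower in 7 of 9, at 303 and 276 CPM in monocytes and 341 and 308 CPM in NK cells, and in 6 of 9 after the same centring, where macrophages stood at 0.02. In CD8 T cells it was at 278 and 289 CPM, a ratio of 0.06.

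The members with the highest ratios in complex V, named for that reason, were Atp5md, Atp5mpl, Atp5e and Atp5k. Atp5md, known as DAPIT and involved in joining ATP synthase dimers, was at 239.5 and 337 CPM in macrophages, 212 and 310.4 in monocytes, and 220.4 and 309 in NK cells, with ratios of 0.49, 0.55 and 0.49, and was higher in 9 of 9 classes. Atp5mpl, another small membrane subunit, was at 218 and 308 CPM in macrophages, 0.49 (0.36 to 0.63). Atp5e, the epsilon subunit of the central stalk, was at 528 and 720.3 CPM in macrophages and 744 and 999.6 CPM in NK cells, and was higher in 11 of 11. Atp5k, which lies at the dimer interface, was at 167 and 224 CPM in CD8 T cells, 0.43 (0.26 to 0.60). Several of these small genes have processed copies in the genome, and how the authors' counting treats reads shared with them is not given in the sources used here.

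Transcript length went with these differences, in the members as in all genes. The median length of the longest annotated transcript was 1231 bases for the 41 members and 3276 bases for all measured genes of macrophages. Across the 41 members, the rank correlation of length with the log2 ratio was −0.35 in macrophages, −0.38 in monocytes, −0.44 in NK cells and −0.29 in CD8 T cells. Across all measured genes it was −0.38, −0.37, −0.36 and −0.25 (genes within 2 libraries, not independent replicates). When measured genes were split by length into 4 equal bins, the shortest held 31 of the 41 members, whose median log2 ratios were 0.25, 0.30, 0.23 and 0.18, beside 0.07, 0.10, 0.06 and 0.06 for all genes of that bin. In the next bin, 8 members had medians of 0.01, 0.12, 0.02 and 0.06, beside −0.11, −0.05, −0.05 and −0.03. The median of the members was above that of all genes in both bins and in all 4 classes. The part of length in the diet differences was not tested further.

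Other lists of mitochondrial genes had smaller or opposite medians than the nuclear members, and the nuclear subunits of complex I came nearest to them. The nuclear subunits of complex I, which feeds electrons from NADH into the chain, had median log2 ratios of 0.19, 0.25, 0.16 and 0.14 in macrophages, monocytes, NK cells and CD8 T cells. Its mitochondrial subunits were lower in sum in 12 of 12 classes, with a median of −0.58. Assembly factors of complexes II to V, of which 26, 18, 30 and 24 of 35 were measured, had medians of 0.05, 0.25, 0.06 and 0.12. Carriers such as cytochrome c had 0.17, 0.13, 0.15 and 0.10. The mitochondrial ribosome, which translates the 6 mitochondrial members, had 0.09, 0.16, 0.11 and 0.10. The citrate cycle, which shares succinate dehydrogenase with complex II, had −0.12, 0.05, −0.01 and 0.07. Regulators of mitochondrial transcription and biogenesis, with only 9, 7, 10 and 8 of 16 measured, had −0.27, 0.06, 0.01 and −0.18, and 4, 0, 1 and 2 of them were lower past 1.5-fold, against 10.1%, 7.26%, 4.88% and 3.34% of all measured genes. The cytosolic ribosome, a list of short and abundant transcripts, had 0.18, 0.20, 0.06 and 0.12.

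Across classes, the level of the machinery followed a similar order in both libraries. The nuclear sum was highest in the non-leukocyte class, at 1.76% and 2.01% of UMIs, followed by NK cells and CD8 T cells, and lowest in neutrophils and mast cells or basophils. The rank correlation of the libraries over 12 classes, which share depth and gates, was 0.97 for the nuclear and 0.85 for the mitochondrial sum. The middle of the order was not resolved. In the normal library the intervals of neighbours overlapped all the way from NK cells through CD8 T cells, pDCs, regulatory T cells and other T cells to cDC2, and in the ketogenic library from other T cells through pDCs, regulatory T cells and monocytes to cDC2. The mitochondrial sum was also highest in the non-leukocyte class, at 3.44% and 1.82%, and lowest in mature dendritic cells, at 1.06% and 0.765%. Macrophages ranked 10th of 12 in both libraries for mitochondrial and 9th for nuclear members. Non-leukocyte barcodes had medians of 31000 and 31855 UMIs, far above the leukocyte classes.

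NK cells and macrophages, a lymphoid and a phagocyte class with many barcodes, differed in the same direction under both diets. The log2 ratio of NK cells over macrophages was 0.52 (0.50 to 0.53) in the normal and 0.59 (0.57 to 0.61) in the ketogenic library for the mitochondrial sum, and 0.29 (0.28 to 0.31) and 0.25 (0.24 to 0.27) for the nuclear sum. Of 42 nuclear members measured, 3 were at least 1.5-fold higher in NK cells in both libraries and 1 was lower, against 21.1% higher and 25.3% lower of 9112 measured genes. Of the 6 mitochondrial members 4 were higher by that rule. The nuclear members past this size were thus a smaller share than among all genes, and 26 were above 0 and 12 below 0 in both libraries, beside 3975 above and 4044 below of the 9112 genes.

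The 3 higher nuclear members were Atp5g2, Uqcrh and Atp5d. Atp5g2 was at 344 and 439.8 CPM in macrophages and at 686 and 844 CPM in NK cells, log2 ratios of 0.997 and 0.940. Uqcrh was at 386 and 447 CPM and at 749.6 and 829 CPM, ratios of 0.96 and 0.89. Atp5d, the delta subunit of the central stalk, was at 304 and 368 CPM and at 549 and 633 CPM, ratios of 0.85 and 0.78. In complex II, 4 of 4 Sdh genes were lower in NK cells than in macrophages in both libraries, with medians of −0.16 and −0.43. The ratios were −0.46 and −0.53 for Sdhb, −0.17 and −0.63 for Sdhc, −0.14 and −0.32 for Sdhd, and only −0.03 and −0.15 for Sdha. No intervals were computed for these ratios of single members. Complex V had 14 of 17 nuclear members above 0 in both. Among all 9112 measured genes, 4044 were below 0 and 3975 above 0 in both. mt-Cytb was higher in NK cells at 0.85 and 0.81, mt-Co3 at 0.68 and 0.78 and mt-Atp6 at 0.65 and 0.68.

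How widely members varied over the 12 classes differed between them. Spread was taken as the SD over classes of log2(CPM + 5), averaged over both libraries, for members with at least 1000 UMIs. In complex V it was largest for Atp5g1, a further c-ring gene (0.70), and Atp5b (0.61). Atp5g1 was at 785 and 761 CPM in the non-leukocyte class, 335 and 373 in NK cells, and 99.6 and 183 in neutrophils. Atp5b was at 859.9 and 727 CPM in the non-leukocyte class and at 227 and 194 CPM in neutrophils. In complex III it was largest for Cyc1, the heme subunit cytochrome c1 (0.61), and Uqcrq (0.60). Cyc1 was at 269.9 and 233 CPM in the non-leukocyte class and 116 and 125 CPM in macrophages, and Uqcrq at 712 and 658 CPM and, in NK cells, 269 and 328 CPM.

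In complex IV the spread was largest for Cox7b (0.48), at 439 and 532 CPM in NK cells, and for Cox5a (0.46), at 627 and 675 CPM in the non-leukocyte class and 207 and 271 CPM in neutrophils. In complex II it was largest for Sdhd (0.50), at 109 and 125 CPM in the non-leukocyte class, and Sdhc (0.43), at 84.1 and 85.8 CPM there. The lowest class was often mast cells or basophils, where Cyc1 rested on 3 and 4 UMIs and Cox7b on 7 and 16. Their place at the bottom is therefore poorly fixed for single members.

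**Figure D4:**
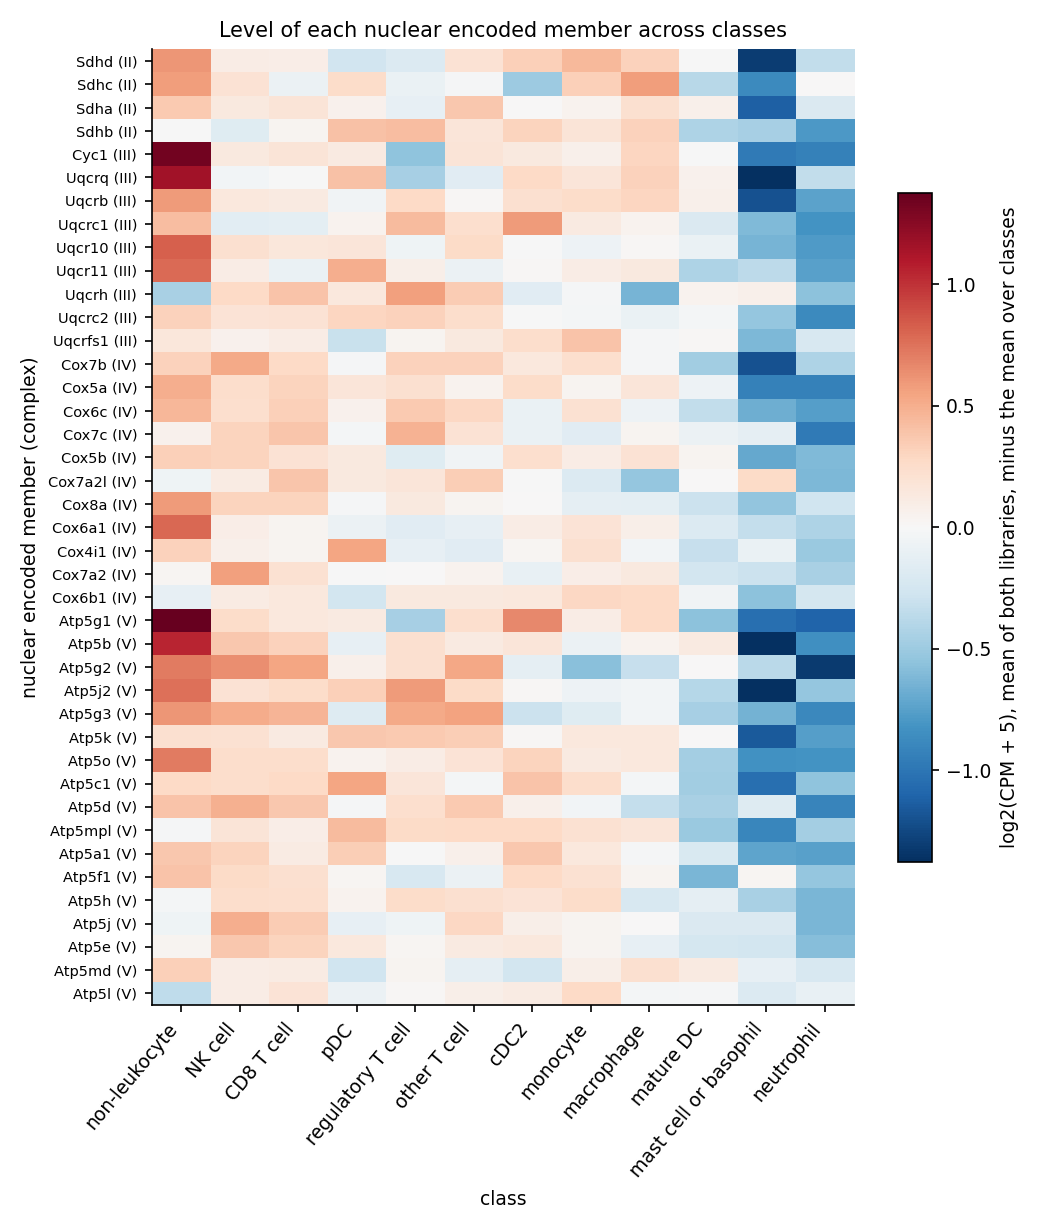
Level of each nuclear encoded member (rows, by complex) in 12 classes (columns), as log2(CPM + 5) averaged over both libraries minus the member's mean over classes (color scale). Cyc1, Uqcrq, Atp5g1 and Atp5b are high in the non-leukocyte class, and most members are low in neutrophils and in mast cells or basophils.

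Tissue-specific isoforms were near the limit of detection in most classes, with 1 clear exception. Cox6a2 is the heart and skeletal muscle form of complex IV subunit 6a and is a known marker of plasmacytoid dendritic cells (pDCs), the interferon-producing dendritic cells, but it was not used to gate them. In pDCs it stood at 966 and 743 CPM, from 111 and 144 UMIs. A UMI was found in 20 of 27 (74.1%) and 28 of 38 (73.7%) pDC barcodes. The other 10 leukocyte classes together had 1.53 and 2.86 CPM, from 28 and 51 UMIs, and free RNA had 4.91 and 3.08 CPM. The level in pDCs was therefore 629.9-fold (log2 9.30, 8.69 to 9.95) and 259.9-fold (log2 8.02, 7.55 to 8.51) that of the other leukocytes. Thinned to 1000 UMIs per barcode, 50.0% (29.9 to 70.1) and 44.7% (28.6 to 61.7) of pDC barcodes had a UMI, whereas 0.24% and 0.40% of macrophages had one. The median depth of pDCs, 3758 and 3517 UMIs, was close to that of macrophages, 4050.0 and 3760.0 UMIs.

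Between the diets Cox6a2 in pDCs had a log2 ratio of −0.38 (−0.74 to −0.01). Its widely expressed partner Cox6a1 was at 183 and 299 CPM in the same cells and at 247 and 277 CPM in macrophages. The non-leukocyte class held 27.5 and 10.96 CPM of Cox6a2, from 64 and 41 UMIs. In ketogenic monocytes 80.0% of its 10 UMIs came from 1 barcode.

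The other tissue forms were scarce. Cox4i2, a form of subunit 4 linked to low oxygen and to lung, was at 6.52 and 9.81 CPM in macrophages (42 and 22 UMIs) and at 0.215 and 0.138 CPM in NK cells, while its common form Cox4i1 was at 872 and 1029.8 CPM in macrophages. Cox7a1, the muscle form of subunit 7a, was at 7.45 and 12.0 CPM in macrophages and 3.22 and 2.77 CPM in NK cells, beside 9.21 and 3.46 CPM in free RNA. It was the nuclear member that was lower in NK cells than in macrophages by the rule above, at log2 ratios of −1.21 and −2.12. Its level was below that of free RNA in normal macrophages and in NK cells of both libraries, and above it in ketogenic macrophages. Cox7a2, the common form, was at 397 and 473 CPM in macrophages and 534 and 637 CPM in NK cells.

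Cox6b2, known as a testis form of subunit 6b, was at 12.0 and 14.0 CPM in monocytes, 14.8 and 31.3 CPM in cDC2, and 3.57 CPM in macrophages of both libraries. Cox7b2 had 7 and 11 UMIs among all kept barcodes. Cox8b and Cox8c had 0 UMIs in both libraries, which allows a level of up to 0.0842 and 0.0755 CPM (3 counts of the total). For the c-ring, Atp5g3 was at 182 and 217 CPM in macrophages and 272 and 314 CPM in NK cells, so all 3 of its genes were present in both classes.

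**Figure D5:**
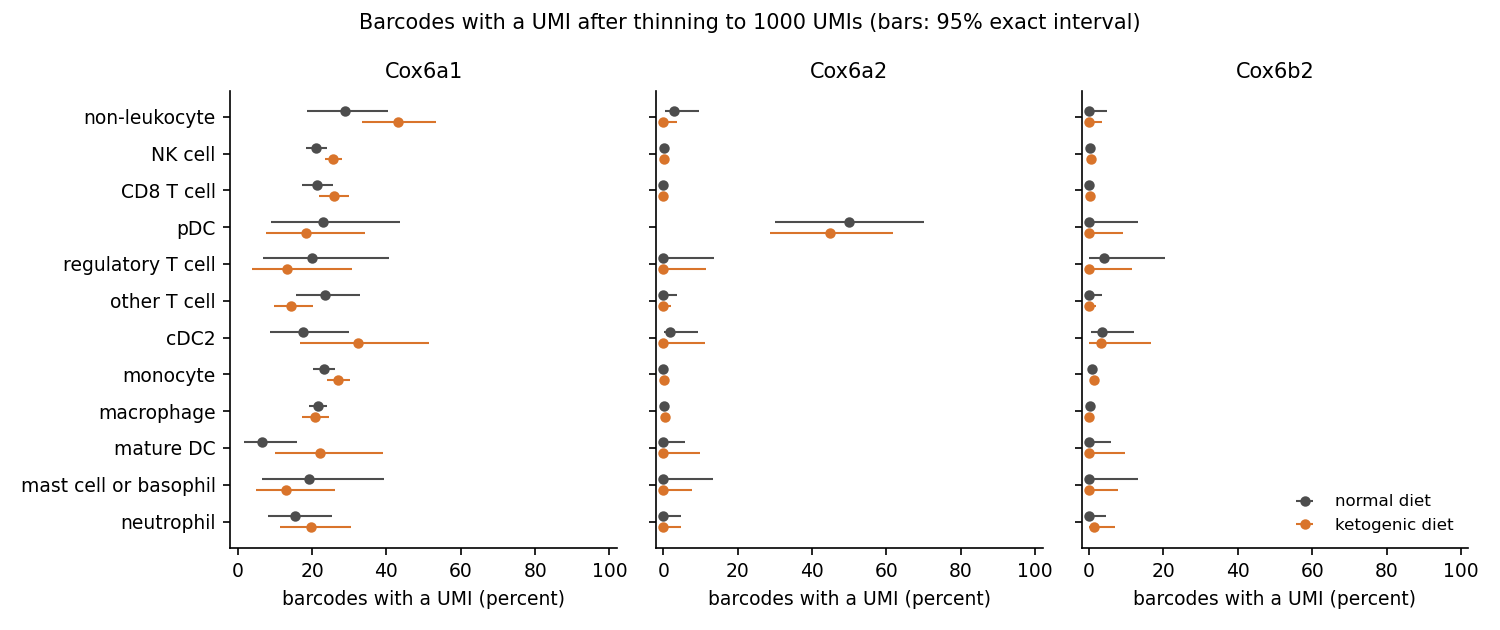
Percent of barcodes with a UMI of Cox6a1, Cox6a2 and Cox6b2 (x axis) in 12 classes after thinning to 1000 UMIs per barcode; points are the 2 libraries and lines are 95% exact binomial intervals. Cox6a1 is found in every class, whereas Cox6a2 reaches 50.0% and 44.7% in pDCs and stays low elsewhere.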

How the data were processed

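The files deposited hold whole UMI counts for each gene in each barcode, without any normalization, and include barcodes without a cell. Cell Ranger made them: its version is 4 per the file headers but 6.0.0 per the submitters' processing notes. Those notes list Seurat 3.2.0 too, and mouse build GRCm38 (mm10). There were 32285 genes in both.

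Further steps ran in Python 3.11.15 with pandas 2.3.3, numpy 2.4.6, matplotlib 3.10.9 and scipy 1.17.1. A barcode was kept from 500 UMIs and 300 genes upward. No limit on the mitochondrial share was set, because it would act on the members. Classes were gated on summed CPM of marker lists with at least 2 markers present (3 for cDC2). Barcodes with markers of 2 lineages (784 and 880) and ungated ones (1035 and 1099) were left out, and no doublet caller was run. The following was decided when class levels of the members were in view: tumor-like and stromal barcodes were joined into 1 class, and classes under 20 barcodes were dropped, which removed B cells (11 and 17 barcodes, mitochondrial members at 9.88% and 1.87% of UMIs). The limits on marker levels came from the marker levels alone, and Fcer1g and Tyrobp were dropped from the myeloid gate because NK cells also express them.

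UMIs were summed per class and library and divided by all UMIs of the class (CPM). Intervals are exact Poisson, exact conditional (ratios) or exact binomial (shares) at 95% and cover counting error only. With 1 library per diet no p-value was computed. Members and gene lists were chosen with earlier results of these data known. The genes named were every mitochondrial member, the Sdh genes, the isoform families, in each main class the 3 highest and 3 lowest nuclear ratios, and per complex the 2 members with the widest spread over classes, together with a few members added after their values were seen (Uqcrh, Uqcrc1, Uqcrfs1, Cox5b and Atp5d). Lengths are those of the longest transcript in the GENCODE vM21 annotation. The code for ratios and intervals was tested on simulated data. Alternatives covered mitochondrial limits, scaling, free RNA, depth, gates, mixed barcodes, averaging, thinning, shared barcodes, pseudocount and centring.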

Additional observations from a re-analysis of the deposited data

How the results depend on the processing

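Of 528 values recomputed over 54 results, 433 moved by less than their counting interval (or, for counts, by less than 1.5 times), 92 moved further and 3 changed sign. The causes were not tested. No paired analysis was possible because each diet has 1 library. With free RNA subtracted, the mitochondrial log2 ratio changed sign in cDC2 (0.0816) and mature dendritic cells (0.83), and was −0.41 in macrophages, −0.56 in monocytes and −0.85 in CD8 T cells. The nuclear ratio of CD8 T cells was then 0.0806, and mitochondrial members lower past 1.5-fold numbered 2 in macrophages and 6 in CD8 T cells. With mixed barcodes kept, the nuclear ratio of mast cells or basophils changed sign (0.0344), the mitochondrial ratio was −0.61 in macrophages, −0.53 in monocytes and −0.36 in CD8 T cells, and the nuclear ratio 0.22 in macrophages and in monocytes. With a mitochondrial share of at most 10%, the mitochondrial ratio was −0.62 in macrophages and −0.60 in NK cells, and the nuclear count per mitochondrial count was 0.930 in normal macrophages, 0.708 in normal monocytes and 1.36 in ketogenic NK cells. At most 20% gave −0.59 in monocytes. As a mean over cells, the mitochondrial ratio was −0.58 in monocytes, −0.52 in NK cells and −0.51 in CD8 T cells, the nuclear ratio of NK cells 0.18, and 3 mitochondrial members were lower in CD8 T cells. Thinned to 1000 UMIs, the mitochondrial ratio was −0.71 in macrophages and −0.55 in NK cells, the nuclear ratio of CD8 T cells 0.14, and 1 nuclear member in macrophages and 3 in monocytes were higher past 1.5-fold. The nuclear count per mitochondrial count was then 0.925 and 1.79 in macrophages, 0.707 and 1.29 in monocytes, 0.756 and 1.28 in NK cells and 0.871 in normal CD8 T cells, and NK cells over macrophages stood at 0.59 and 0.74 for the mitochondrial sum. Centred on the median of all genes, 2 nuclear members in macrophages and 2 in monocytes were higher past 1.5-fold, and 2 mitochondrial members in macrophages and 1 in NK cells lower. Without a filter and with 5 CPM added, 1 nuclear member in monocytes was higher. Alternatives chosen after seeing the data were leaving out the barcode with the most member UMIs, counting B cells as a class, and comparing NK cells with macrophages at 2000 to 5000 UMIs. The last gave 0.79 and 0.93 for the mitochondrial and 0.34 and 0.33 for the nuclear sum. Depth limits the scarce isoforms and the classes with under 100 barcodes.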
